A study of Homo sapiens with 15 samples.

Results

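Calcineurin and protein phosphatase 2A (PP2A) are serine/threonine phosphatases built from several subunits, and their subunit genes were followed here in HCT116 cells, an established human colorectal carcinoma line. The members are the rows of the raw count table whose symbol starts with PPP2 or PPP3, which gave 9 of the 730 endogenous genes of a NanoString cancer pathway panel. They are 5 calcineurin genes, PPP3CA, PPP3CB, PPP3CC, PPP3R1 and PPP3R2, and 4 PP2A genes, PPP2CB, PPP2R1A, PPP2R2B and PPP2R2C. PPP3R2 was not above the background of the negative probes in any sample, so fold changes are given for 8 members. The cells were grown in RPMI medium with serum and treated for 24 h with 40 µM thymoquinone (TQ), with 15 µM 5-fluorouracil (5-FU), with both compounds at 35 µM each (Combi), or with 35 µM SARB, an ester-linked hybrid of TQ and 5-FU. Control cells were left untreated, and whether they received the DMSO in which the compounds were dissolved is not given in the sources used here. Each of the 5 groups had 3 samples, described as biological replicates, and all came from the 1 cell line. The TQ dose was lower and the 5-FU dose higher in Combi than in the single treatments, so SARB and Combi are the only treatments matched in dose and time.

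Calcineurin is switched on by calcium and calmodulin. Its catalytic A subunit comes from PPP3CA, PPP3CB or PPP3CC, and its calcium-binding B subunit from PPP3R1 or, mostly in testis, PPP3R2. The active enzyme dephosphorylates NFAT transcription factors, which then enter the nucleus. PP2A joins a catalytic C subunit, of which PPP2CB encodes the beta form, to a scaffold A subunit, of which PPP2R1A encodes the alpha form, and to an exchangeable B subunit such as those of PPP2R2B and PPP2R2C, which sets the substrates. PP2A removes phosphate from many signalling proteins, among them AKT and ERK kinases and beta-catenin. The catalytic alpha gene of PP2A and its second scaffold gene are not among the members, so the complex is only partly covered.

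In the NanoString assay a pair of probes carrying a colour barcode binds each transcript, and barcodes are counted directly, with no amplification step. The total of the endogenous counts lay between 135017 and 607782 per sample, with the widest spread in TQ, where it ran from 135017 to 513114. Each sample was scaled to the same geometric mean over its 40 housekeeping genes, and values on this scale are called scaled counts. Probes differ in efficiency, so counts are compared between groups for the same gene and not between genes. Background was taken as the mean plus 2 SD of the 8 negative probes of a sample, and 447 to 599 genes lay above it. The epithelial genes CDH1, which encodes E-cadherin, and MET were above background in 15 of 15 samples, at 116 to 574 and 1140 to 1965 scaled counts. Of the fibroblast genes, COL1A2, COL3A1, PDGFRA and PDGFRB were above background in 0 of 15 samples and COL1A1 in 13. CD14 was above it in 3 samples and FLT1 in 2. The samples ran on 3 cartridges, of which the first carried every TQ, 5-FU and SARB sample together with control replicate 1. Control replicates 2 and 3 ran with Combi replicate 1 on the second, and the other Combi replicates, 2 and 3, on the third. SARB and Combi never shared a cartridge, so for them cartridge and treatment cannot be told apart except through the control samples.

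Under SARB the calcineurin genes PPP3CA, PPP3CB and PPP3R1 fell and the PP2A catalytic gene PPP2CB rose. PPP3CB fell in the other treatments too, and the fall of PPP3CA was steepest in TQ. A gene is called when its adjusted p is at most 0.05 and its fold change at least 1.5. In TQ, 3 of 8 members were called lower (PPP3CA, PPP3CB and PPP2R2B), where 21.6% of all 730 genes were, and 0 were called higher, where 3.42% of all genes were. In 5-FU, 2 were called lower (PPP3CB and PPP2R2B) against 10.1% of all genes, and 0 higher against 10.1%. In Combi, 1 was called lower (PPP3CB) against 6.58%, and 0 higher against 13.6%. In SARB, 4 were called lower (PPP3CA, PPP3CB, PPP3R1 and PPP2R2B) against 20%, and PPP2CB was called higher against 8.63%. With 8 members each gene weighs heavily, the counts for TQ, 5-FU and SARB include PPP2R2B, which was near background, and they were lower in some treatments under the other scaling and with cartridge as a block, as given further on. For TQ, 5-FU, Combi and SARB in turn, the median log2 fold change of the 8 members was -0.33, -0.31, -0.42 and -0.44. The median of all 730 genes was -0.47, -0.27, -0.10 and -0.41, so a member with a fold change near these values moved like the panel as a whole. The 4 comparisons share their control samples. RNA was taken from whole cultures, in which fewer cells of a type and less RNA per cell cannot be told apart.

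**Figure D1:**
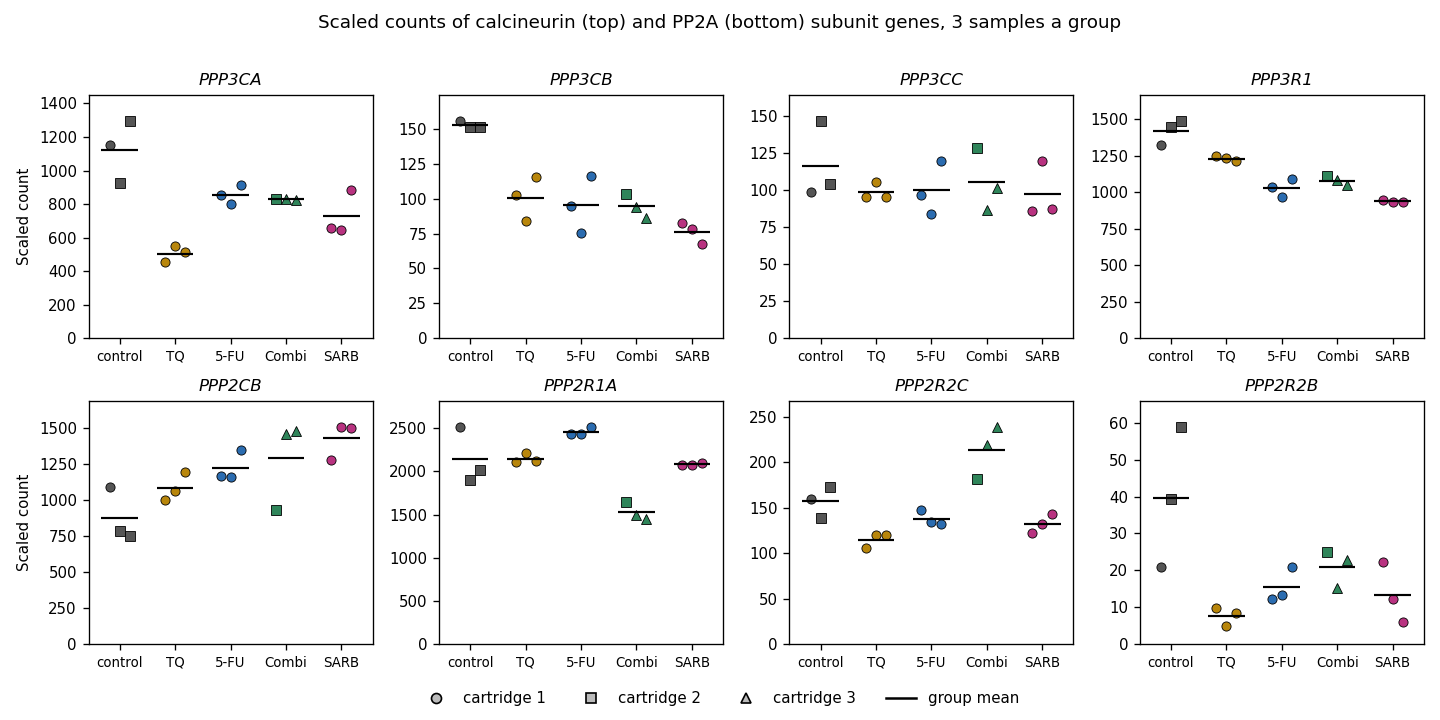
Scaled counts (y axis, from 0) of 8 subunit genes in control, TQ, 5-FU, Combi and SARB cells (x axis), with 1 point per sample, the point shape giving the cartridge and the line the mean of 3 samples. PPP3CA was lowest in TQ at 452.9 to 546.9, PPP3CB and PPP3R1 lay below control in every treated sample, and PPP2CB was highest in SARB at 1280.3 to 1504.7.

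PPP3CA encodes the alpha form of the calcineurin catalytic subunit. Control samples held 1151.8, 925.2 and 1294.1 scaled counts and TQ samples 452.9, 546.9 and 515.0. Every TQ sample was thus well below every control sample, and the raw counts behind them were 612 to 770 and 185 to 887. The log2 fold change was -1.14 (standard error 0.14, edgeR adjusted p = 4.82e-06), a fall of 2.21-fold that was also larger than the panel median of -0.47. SARB samples held 654.6, 644.5 and 883.4, all lower than control, and the log2 fold change was -0.62 (standard error 0.14, edgeR adjusted p = 0.00124). That call missed the fold limit when control replicate 3 (-0.51), SARB replicate 1 (-0.55) or SARB replicate 2 (-0.54) was left out. The 5-FU samples held 852.3, 798.3 and 911.8 and the Combi samples 831.6, 831.0 and 826.5. Both groups lay below control without overlap, yet their log2 fold changes of -0.40 and -0.44 were under the fold limit (edgeR adjusted p = 0.035 and 0.0177). By group mean the order was control (1124 ± 186, SD, n = 3), 5-FU (854.1 ± 56.8), Combi (829.7 ± 2.81), SARB (727.5 ± 135) and TQ (504.9 ± 47.8). Combi overlapped 5-FU and SARB in this order, while TQ overlapped none of the others.

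PPP3CB encodes the beta form of the catalytic subunit and was the member called lower in all 4 treatments. Its control samples were close together at 155.7, 151.2 and 151.3 scaled counts, from raw counts of 90 to 100. SARB samples held 82.9, 78.2 and 67.4, with a log2 fold change of -1.02 (standard error 0.18, edgeR adjusted p = 0.000116), a 2.02-fold fall. Combi samples held 103.4, 94.3 and 86.2, and the log2 fold change was -0.70 (standard error 0.17, edgeR adjusted p = 0.00338). In both groups every sample lay below every control sample. The 5-FU samples were more spread, at 95.2, 75.8 and 116.7, with a log2 fold change of -0.67 (standard error 0.18, edgeR adjusted p = 0.00659). The TQ samples held 102.8, 83.9 and 116.0, with a log2 fold change of -0.63 (standard error 0.18, edgeR adjusted p = 0.0137). Although neither group overlapped control, the call in 5-FU was lost without 5-FU replicate 2 (-0.53, edgeR adjusted p = 0.0516) and that in TQ without TQ replicate 2 (-0.47, edgeR adjusted p = 0.126). By mean the order was control (152.7 ± 2.56, SD, n = 3), TQ (100.9 ± 16.1), 5-FU (95.94 ± 20.5), Combi (94.65 ± 8.58) and SARB (76.18 ± 7.94). TQ, 5-FU and Combi overlapped each other. SARB overlapped 5-FU, where replicate 2 held 75.8, and lay below TQ and Combi without overlap.

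PPP3R1 encodes the widely expressed form of the calcium-binding regulatory subunit. Control samples held 1324.8, 1443.7 and 1485.7 scaled counts and SARB samples 944.8, 935.7 and 932.6, a spread of 0.678% of their mean. The log2 fold change was -0.60 (standard error 0.10, edgeR adjusted p = 5.52e-05), a fall of 1.51-fold that sat at the fold limit and dropped under it without control replicate 2 (-0.58) or 3 (-0.56). The 5-FU samples held 1031.8, 964.6 and 1086.9 and the Combi samples 1108.8, 1080.8 and 1046.9. Both were below control without overlap, with log2 fold changes of -0.46 (edgeR adjusted p = 0.000879) and -0.39 (edgeR adjusted p = 0.00315) that were under the fold limit. The TQ samples, at 1246.1, 1231.3 and 1212.5, also lay below control, but their log2 fold change of -0.21 did not pass the test (edgeR adjusted p = 0.0979). By mean the order was control, TQ, Combi, 5-FU and SARB, in which Combi and 5-FU were the only neighbours that overlapped.

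The promoter of PPP3R1 is shown because its scaled counts were lower than control in every treated sample. That of PPP2R1A is shown because its scaled counts in TQ and SARB lay within the control range. Both patterns depend on the scaling, and that of PPP2R1A also on the cartridge, as given further on. Of the 9 members, 5 had an entry in the RefSeq promoter table, on build GRCh38.p14, and PPP3CA and PPP3CB had none. The 250 bases before the start of PPP3R1 are at chr2:68252533-68252782 on the minus strand, and those of PPP2R1A, taken at the first of its 2 listed starts, at chr19:52189802-52190051 on the plus strand. Capitals mark matches, on both strands, to the GC box GGGCGG, to TGACGT, which belongs to the cAMP response element, and to the CCAAT box CCAAT, none of which overlap another.
PPP3R1: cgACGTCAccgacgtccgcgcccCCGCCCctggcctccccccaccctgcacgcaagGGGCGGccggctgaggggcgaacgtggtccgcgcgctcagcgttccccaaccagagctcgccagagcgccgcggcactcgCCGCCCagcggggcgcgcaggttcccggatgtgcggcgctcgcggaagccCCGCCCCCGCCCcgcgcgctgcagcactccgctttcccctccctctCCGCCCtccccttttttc
PPP2R1A: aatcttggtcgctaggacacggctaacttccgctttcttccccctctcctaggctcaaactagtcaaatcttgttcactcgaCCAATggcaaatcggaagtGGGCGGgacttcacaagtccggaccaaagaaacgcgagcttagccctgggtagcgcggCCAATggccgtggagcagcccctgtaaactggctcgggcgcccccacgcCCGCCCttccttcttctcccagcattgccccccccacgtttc
The PPP3R1 window is 76.8% G or C, where the median of all 35116 listed windows is 58%, and the PPP2R1A window is 59.2%. PPP3R1 holds 6 GC boxes, 1 TGACGT and 0 CCAAT boxes, and PPP2R1A holds 2, 0 and 2. The GC box is found in 42.6% of all listed windows, TGACGT in 7.1% and the CCAAT box in 32%. These matches describe the letters of the windows and are not evidence of binding.

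The remaining calcineurin genes gave no call. PPP3CC, the gamma form of the catalytic subunit, had control samples of 98.6, 146.6 and 104.2 scaled counts. Its treated samples lay between 83.8 and 128.4 and overlapped control in every treatment. Across TQ, 5-FU, Combi and SARB its log2 fold changes were -0.23, -0.23, -0.17 and -0.28, with edgeR adjusted p from 0.268 to 0.62. The 95% confidence interval in SARB ran from -0.70 to 0.14, so a fall as large as that of PPP3CA in SARB lies inside it. PPP3R2, the second B subunit gene, had raw counts of 2 to 24 and was above background in 0 of 15 samples, so it has only an upper bound here.

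The ratio of 2 genes within a sample does not depend on how the sample was scaled. For PPP3CA over PPP3CB the log2 ratios of raw counts were 2.89, 2.61 and 3.10 in control and 2.14, 2.71 and 2.15 in TQ. The TQ mean was lower by 0.53, yet TQ replicate 2 lay within the control range (difference -0.53, two-sided exact permutation p = 0.2). In 5-FU, Combi and SARB the ratio was higher than control by 0.31, 0.27 and 0.38, with overlap in each (exact permutation p = 0.2, 0.2 and 0.3). TQ was the only group in which PPP3CA lay further below control than PPP3CB did, although the difference between treatments was not tested. For PPP3R1 over PPP3CB the log2 ratios were 3.09, 3.26 and 3.30 in control. They were 3.60, 3.88 and 3.39 in TQ, 3.42, 3.52 and 3.60 in Combi, and 3.51, 3.58 and 3.79 in SARB. In these 3 treatments all samples lay above control, by 0.41, 0.30 and 0.41 on average. PPP3CB was thus lower relative to its regulatory partner within the same samples, which does not show that both genes fell. The 5-FU samples, at 3.44, 3.67 and 3.22, were higher by 0.23 and overlapped control (exact permutation p = 0.3). A comparison of 3 against 3 samples cannot give a p under 0.1, which is the value for TQ, Combi and SARB (exact permutation), and 0.214 after adjustment over the 15 ratio comparisons.

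**Figure D2:**
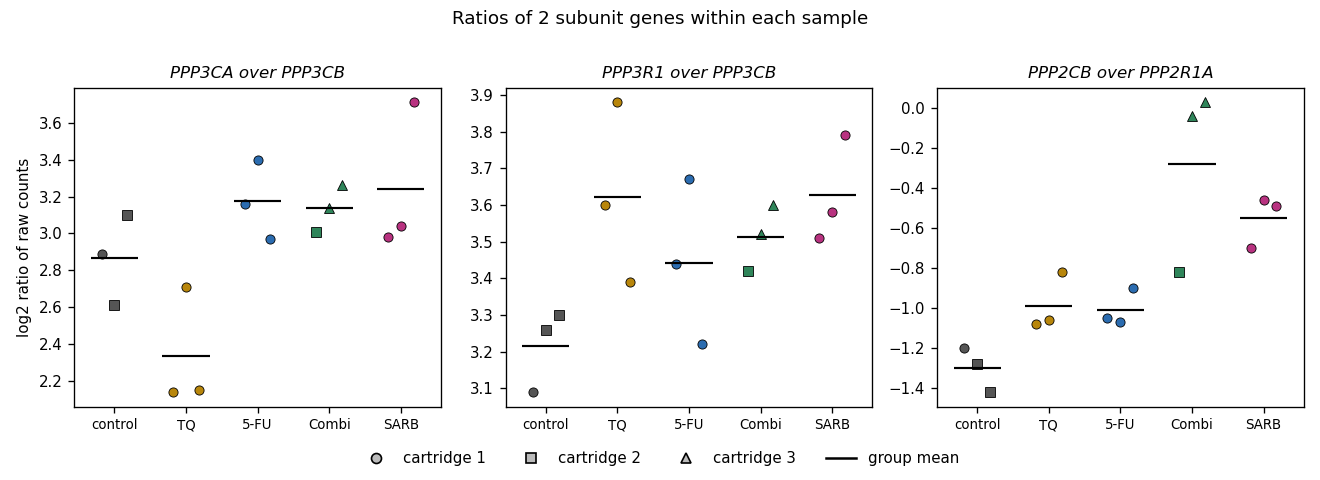
Log2 ratios of the raw counts of 2 subunit genes in the same sample (y axis, not starting at 0) by group (x axis), with 1 point per sample, the point shape giving the cartridge and the line the mean of 3 samples. PPP2CB over PPP2R1A was above the control range of -1.42 to -1.20 in every treated sample, and Combi replicates 2 and 3, on the third cartridge, were highest at -0.04 and 0.03.

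PPP2CB, the beta form of the PP2A catalytic subunit, was the only member called higher. Control samples held 1089.6, 783.1 and 751.3 scaled counts and SARB samples 1280.3, 1504.7 and 1500.0. Every SARB sample was above every control sample, and the log2 fold change was 0.71 (standard error 0.16, edgeR adjusted p = 0.0017), a 1.63-fold rise. The 5-FU samples, at 1169.8, 1161.5 and 1344.0, were also all above control, with a log2 fold change of 0.49 under the fold limit (edgeR adjusted p = 0.029). The Combi samples, at 933.9, 1457.6 and 1481.1, overlapped control, with a log2 fold change of 0.57 just under the limit (edgeR adjusted p = 0.0107). The TQ samples, at 998.8, 1063.0 and 1197.2, overlapped control too, and their log2 fold change of 0.31 did not pass the test (edgeR adjusted p = 0.13). The values of this gene also followed the cartridge. Control replicate 1, on the first cartridge, was higher than control replicates 2 and 3 on the second, and Combi replicate 1, on the second, was lower than Combi replicates 2 and 3 on the third. Without control replicate 1 the gene was called higher in 5-FU (0.67) and Combi (0.75), and without Combi replicate 1 in Combi (0.75). Against control samples of the same cartridge the log2 difference was 0.39 in SARB, 0.28 in Combi, 0.17 in 5-FU and -0.01 in TQ. In SARB each of the 3 samples was above control replicate 1, by 0.23 to 0.47, and with cartridge as a block the SARB value was 0.39 and no longer called (edgeR adjusted p = 0.0675).

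PPP2R1A, the alpha scaffold subunit on which the PP2A enzyme is assembled, was measured at 2509.5, 1904.8 and 2013.5 scaled counts in control. TQ samples, at 2110.3, 2216.6 and 2114.7, and SARB samples, at 2072.8, 2069.6 and 2101.4, fell inside the control range. Their log2 fold changes were 0.00 and -0.04, with 95% confidence intervals from -0.22 to 0.23 and from -0.26 to 0.18. The 5-FU samples, at 2429.9, 2433.4 and 2511.5, overlapped control and gave a log2 fold change of 0.20 (edgeR adjusted p = 0.173). Combi samples, at 1646.2, 1499.7 and 1452.3, were all lower than control, and the log2 fold change was -0.48 (standard error 0.11, edgeR adjusted p = 0.00126), which did not reach the fold limit. On the second cartridge, the only one with control and Combi, Combi replicate 1 differed from control by -0.25. On the first cartridge the TQ, 5-FU and SARB samples differed from control replicate 1 by -0.23, -0.03 and -0.27 on average. Within a cartridge the TQ and SARB differences were thus near that of Combi.

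PPP2R2C, the gamma form of the B subunit, was above background in 15 of 15 samples. Control samples held 159.1, 139.1 and 173.1 scaled counts. Combi samples, at 181.8, 218.7 and 238.4, were all above control, and TQ samples, at 105.3, 119.6 and 119.4, all below it. The log2 fold changes were 0.45 in Combi (standard error 0.14, edgeR adjusted p = 0.02) and -0.44 in TQ (standard error 0.15, edgeR adjusted p = 0.0349), both under the fold limit. The 5-FU samples, at 147.8, 134.4 and 132.0, and the SARB samples, at 122.4, 132.1 and 143.2, overlapped control, with log2 fold changes of -0.18 and -0.24 that did not pass the test.

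PPP2R2B, the beta form of the B subunit, which is best known from nervous tissue, was above background in only 5 of 15 samples. Its raw counts were 4 to 38. Control samples held 20.8, 39.3 and 58.8 scaled counts, TQ samples 9.8, 4.9 and 8.5, 5-FU samples 12.2, 13.3 and 20.8, Combi samples 25.0, 15.3 and 22.8 and SARB samples 22.2, 12.1 and 5.9. Only the TQ samples lay entirely below control. Log2 fold changes came to -2.47 in TQ (edgeR adjusted p = 0.00257), -1.36 in 5-FU (edgeR adjusted p = 0.0456), -0.93 in Combi (edgeR adjusted p = 0.161) and -1.61 in SARB (edgeR adjusted p = 0.0139). The background itself, on the same scale, was 21.59 to 41.9 in control and 5.9 to 15.25 in TQ, and its part in these values was not tested. With raw counts under 20 set to 20, the value in TQ was -0.58 and not called (edgeR adjusted p = 0.56). That setting replaced every TQ count, which were 4 to 8, so this value does not measure the gene in TQ. In SARB, where counts of 9 and 12 were replaced, the gene stayed called (-1.23, edgeR adjusted p = 0.0498). The call in 5-FU was lost when 1 of these was left out, namely any Combi replicate, replicate 2 or 3 of control, replicate 1 or 3 of TQ, or replicate 1 or 2 of 5-FU (log2 fold changes between -1.37 and -0.97), and that in SARB without control replicate 3 (-1.21) or SARB replicate 3 (-1.17).

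The catalytic and the scaffold gene of PP2A were also set against each other within each sample. The log2 ratio of PPP2CB over PPP2R1A was -1.20, -1.28 and -1.42 in control. The TQ samples gave -1.08, -1.06 and -0.82 and the 5-FU samples -1.05, -1.07 and -0.90. The Combi samples gave -0.82, -0.04 and 0.03 and the SARB samples -0.70, -0.46 and -0.49. Every treated sample was above every control sample. The mean differences from control were 0.32 for TQ, 0.29 for 5-FU, 1.03 for Combi and 0.76 for SARB, each with the smallest two-sided exact permutation p that 3 against 3 samples allow, 0.1, and 0.214 after adjustment over 15 ratio comparisons. In Combi replicate 1 the ratio was higher than in the control samples of its own cartridge, -0.82 against -1.28 and -1.42. TQ, 5-FU and SARB samples, all of the first cartridge, were above control replicate 1 at -1.20. SARB and Combi overlapped in this ratio (difference -0.27, exact permutation p = 0.4).

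SARB joins TQ and 5-FU in a single molecule through an ester, whereas Combi gives the separate compounds at the same concentration, and this was the only matched pair of treatments compared. PPP2R2C was the 1 member called lower in SARB than in Combi, where 11.2% of all genes were, and 0 members were called higher, where 0.959% of all genes were. Its SARB samples, 122.4 to 143.2 scaled counts, lay below its Combi samples, 181.8 to 238.4, with a log2 fold change of -0.68 (standard error 0.14, edgeR adjusted p = 0.00169). PPP2R1A was higher in SARB in all samples, with a log2 fold change of 0.44 (standard error 0.11, edgeR adjusted p = 0.00619) under the fold limit. The other members did not pass the test. The log2 fold changes and 95% confidence intervals were -0.18 (-0.46 to 0.10) for PPP3CA, -0.32 (-0.68 to 0.04) for PPP3CB, -0.12 (-0.51 to 0.28) for PPP3CC, -0.20 (-0.40 to -0.00) for PPP3R1 and 0.14 (-0.19 to 0.47) for PPP2CB. PPP2R2B, near background, had a value of -0.68, as large as that of PPP2R2C, but with a wide interval of -1.69 to 0.33. The interval of PPP3CB reaches -0.68, so the treatments were not shown to act alike on these genes. PPP3CB and PPP3R1 samples of SARB lay below those of Combi without overlap. Their values were no further from 0 than the panel median in this comparison, which was -0.32. The share of all genes without overlap is not given, so this separation is not particular to these members. With cartridge as a block, 0 members were called lower, where 0.137% of all genes were, and the PPP2R1A value was -0.02.

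The scaling of the samples decided several of these calls. TMM normalization centres the bulk of all genes in place of the housekeeping genes, and the panel medians of TQ, 5-FU, Combi and SARB against control were then -0.02, -0.07, -0.02 and -0.07. PPP2CB was then called higher in all 4 treatments, with log2 fold changes of 0.75, 0.66, 0.65 and 1.04 in the order TQ, 5-FU, Combi and SARB. It was the 1 member called higher in each, against 10.8%, 14.2%, 16.3% and 16.4% of all genes. PPP3CA stayed called lower in TQ at -0.68 (edgeR adjusted p = 0.0121), but its value in SARB was -0.24 and not called. PPP3CB stayed called lower in Combi at -0.61 and in SARB at -0.66 (edgeR adjusted p = 0.00662 and 0.00427). It lost its calls in TQ (-0.16) and 5-FU (-0.48). PPP3R1 in SARB was -0.24, and its value in TQ turned from -0.21 to 0.25. PPP2R1A in TQ was 0.45 (edgeR adjusted p = 0.0411), under the fold limit. The members called lower after TMM were thus 2 in TQ (PPP3CA and PPP2R2B, against 6.03% of all genes), 0 in 5-FU (5.62%), 1 in Combi (PPP3CB, 5.75%) and 2 in SARB (PPP3CB and PPP2R2B, 9.32%). In SARB against Combi, PPP2R1A was the 1 member called higher after TMM, at 0.71 (edgeR adjusted p = 0.00314, 5.34% of all genes), and 0 were called lower (7.4%). PPP2R2C in that comparison was -0.41 and lost its call (edgeR adjusted p = 0.124).

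Cartridge as a block sets TQ, 5-FU and SARB against control replicate 1 and Combi replicate 1 against control replicates 2 and 3. PPP3CA was then called lower in TQ (-1.18, edgeR adjusted p = 0.000418), the 1 member called there where 3.56% of all genes were. In SARB, 2 members were called lower where 7.67% of all genes were, PPP3CA at -0.65 (edgeR adjusted p = 0.0184) and PPP3CB at -1.05 (edgeR adjusted p = 0.00467). No member was called lower in 5-FU or Combi, where 5.34% and 4.79% of all genes were, and 0 were called higher in SARB, where 6.85% were. PPP3R1 in SARB was -0.50, which is under the fold limit (edgeR adjusted p = 0.00354). Within the first cartridge alone, with control replicate 1 as the single control, PPP3CA differed by -1.19 in TQ and -0.68 in SARB, PPP3CB by -1.04 in SARB and PPP3R1 by -0.50 in SARB. On the second cartridge, Combi replicate 1 differed from control replicates 2 and 3 by -0.40 for PPP3CA, -0.55 for PPP3CB and -0.40 for PPP3R1. The directions of these 3 calcineurin genes were the same within a cartridge as over all samples.

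Most of the other genes of calcium and calcineurin signalling on the panel were not called, and the share called lower in TQ and in SARB was near that of all genes. Their list covers calcium channels, calmodulin-like proteins, calmodulin-dependent kinases, phospholipases and protein kinase C genes, with 27 genes on the panel, 18 of them above background in at least 8 samples. Of the 27, 7 were called lower in TQ (25.9%, against 21.6% of all genes), 5 in SARB (18.5% against 20%), 1 in 5-FU (3.7% against 10.1%) and 1 in Combi (3.7% against 6.58%). In Combi 1 was called higher, where 13.6% of all genes were. This was PLCB4, a phospholipase C gene (0.87, edgeR adjusted p = 0.0361), named after its value was seen. With cartridge as a block no gene of the list was called higher in Combi, where 8.36% of all genes were. The list had a median log2 fold change, against the panel medians given above, of -1.13 for TQ, -0.25 for 5-FU, -0.15 for Combi and -0.50 for SARB. CACNA2D2, an auxiliary subunit of voltage-gated calcium channels, was called lower in all 4 treatments with housekeeping scaling. After TMM normalization no gene of the list was called lower in Combi, where 5.75% of all genes were, so CACNA2D2 lost that call. The values that follow are those with housekeeping scaling. From a control mean of 154 scaled counts it went to means of 67.8 with TQ, 85.8 with 5-FU, 99.8 with Combi and 63.6 with SARB, with log2 fold changes of -1.13, -0.85, -0.62 and -1.29 (edgeR adjusted p = 0.000378, 0.00241, 0.0158 and 3.52e-05). CALML5, a calmodulin-like protein, and CAMK2B, a calmodulin-dependent kinase, were called lower in TQ (-1.78 and -1.97) and in SARB (-1.37 and -1.42), from control means of 42.8 and 40.1 scaled counts. They were above background in 11 and 10 samples, and their TQ means of 13.1 and 11.4 lay within the range of the TQ background given for PPP2R2B, so the size of these folds is uncertain. CACNG6, another channel subunit, was called lower in TQ and SARB too, but was above background in only 3 samples. The fifth gene in SARB was CACNG1 (-1.76), above background in 7 samples and named after its value was seen. In SARB against Combi, 2 genes were called lower (7.41% against 11.2% of all genes), CACNA2D2 (-0.67, edgeR adjusted p = 0.0205) and CACNG6. With cartridge as a block neither was called, where 0.137% of all genes were called lower.

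Of 20 genes whose proteins PP2A is known to bind or dephosphorylate, 7 were called lower in TQ (35%, against 21.6% of all genes), 5 in SARB (25% against 20%), 3 in 5-FU (15% against 10.1%) and 1 in Combi (5% against 6.58%). Their median log2 fold change was -0.25 for TQ and -0.26 for SARB, nearer to 0 than the panel medians of -0.47 and -0.41. It was -0.21 for 5-FU and -0.15 for Combi, where the panel medians were -0.27 and -0.10. MAPK3, which encodes the kinase ERK1, fell from a control mean of 370 scaled counts to 140 in TQ, 227 in 5-FU and 174 in SARB, with log2 fold changes of -1.39, -0.71 and -1.12 (edgeR adjusted p = 7.49e-05, 0.0118 and 0.000195). Its Combi mean was 366 (-0.02), and it was lower in SARB than in Combi (-1.10, edgeR adjusted p = 0.000593). GSK3B, a kinase that marks beta-catenin for degradation, fell from 558 to 246, 323 and 318 in TQ, 5-FU and SARB, with log2 fold changes of -1.17, -0.79 and -0.81. CHEK1, a DNA damage checkpoint kinase, was called lower in 5-FU (-0.69), Combi (-0.66) and SARB (-0.76), from 955 scaled counts in control. In Combi 1 of the 20 was called higher, where 13.6% of all genes were. It was ATM, a DNA damage kinase (1.16, edgeR adjusted p = 0.000321). ATM was also called lower in SARB than in Combi (-0.77), and it was named after its values were seen. With cartridge as a block, no listed gene was called higher in Combi, where 8.36% of all genes were. No listed gene, and so neither MAPK3 nor ATM, was then called lower in SARB than in Combi, where 0.137% were. Over both lists, 14 of 47 genes were called lower in TQ (29.8%, against 21.6% of all genes) and 10 in SARB (21.3% against 20%) with housekeeping scaling. In TQ these were 7 after TMM normalization, where 6.03% of all genes were called lower, and 2 with cartridge as a block, where 3.56% were. In 5-FU 4 of 47 were called lower (8.51% against 10.1%). The count there was 1 after TMM (5.62% of all genes) and 1 with cartridge as a block (5.34%). In Combi 2 of 47 were called lower (4.26% against 6.58%), CACNA2D2 and CHEK1. Both lost that call after TMM, where the count was 0 (5.75% of all genes), and 1 gene was called with cartridge as a block (4.79%).

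Across the 15 samples, the 400 panel genes with a mean of at least 50 scaled counts were searched for those most like each member that was called against control, by Pearson's r of log2 scaled counts. The samples share the scaling and the cartridges, so these values describe the samples only. PPP3CA was most like WNT16 (r = 0.93), followed by TIAM1 and ETV1 (0.86 each), where the median r over all searched genes was 0.22. PPP3CB was most like CHEK1 and PLA2G4A (0.91 each) and SUV39H2 (0.90), with a median of 0.19. PPP3R1 was most like GTF2H3 (0.95), TCF3 (0.94) and TTK (0.94), with a median of 0.14. PPP2CB was most like CAPN2 (0.90), STK11 (0.88) and PML (0.84), with a median of -0.03. PPP2R2B, near background, was most like UBB (0.88), RAC1 (0.86) and BRIP1 (0.85), with a median of 0.28. Among the members, PPP3CB and PPP3R1 were most alike (r = 0.87), PPP3CA was less like either (0.45 and 0.24), and PPP2CB ran opposite to PPP3R1 (-0.82) and PPP3CB (-0.69).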

How the data were processed

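The authors measured 50 ng of total RNA per sample with the nCounter PanCancer Pathways panel and used nSolver 3.0 with the geometric mean of the housekeeping genes. The authors deposited raw counts, which were used here, and a normalized signal, in which 100% of the values could be rebuilt, to within 1%, by subtracting the negative probes' geometric mean from the raw count, setting results under 1 to 1 and multiplying by 1 factor per sample. A deposited table of the authors' fold changes and p-values was not used.

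Here, edgeR 4.0.16 (R 4.3.3) fitted the raw counts of 730 endogenous genes of all 5 groups with its quasi-likelihood test, with library sizes set by the geometric mean of the 40 housekeeping genes and no block. P-values were adjusted by the Benjamini-Hochberg method over all 730 genes, and calls needed both a 1.5-fold change and an adjusted p no higher than 0.05. The fit was tested on simulated data. Ratios of raw counts were compared by two-sided exact permutation tests (scipy 1.17.1). The edgeR p-values rest on the spread between samples of the same group, estimated over all 5 groups together and with information shared across genes. In control and Combi this spread includes differences between cartridges.

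Alternatives were TMM, DESeq2 1.42.0, cartridge as a block, the replicate number as a block, a mean raw count of at least 20, counts under 20 set to 20, limma 3.58.1 on the log2 of the authors' normalized signal, and leaving out each sample. Named were all members, the 3 genes most like each member called against control, and listed genes called in at least 2 of the 4 comparisons against control. Some genes that this rule names are not reported here. Members and lists were chosen with earlier results of these data known.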

Additional observations from a re-analysis of the deposited data

How the results depend on the processing

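Counts of called members and of called genes of the 2 signalling lists are given here where they moved by over 1.5 times, with member values that turned in sign, and the cause was not tested. The shares of all genes called are given above for TMM normalization and cartridge as a block. They are not given for DESeq2 and the other settings, so the counts under those settings cannot be set against the panel. After TMM normalization, 1 member was called higher in each of TQ, 5-FU, Combi and SARB versus Combi, and members called lower numbered 0 in 5-FU, 2 in SARB and 0 in SARB versus Combi. Listed genes called higher were 2 in TQ and 4 in SARB, and lower 7 in TQ, 0 in Combi, 1 in 5-FU and 3 in SARB versus Combi. Signs turned for PPP2R1A in SARB (0.30), PPP2R2C in TQ (0.04), 5-FU (0.02) and SARB (0.13), PPP3CC in TQ (0.25), SARB (0.07) and SARB versus Combi (0.15), PPP3R1 in TQ (0.25) and SARB versus Combi (0.06), and PPP3CA in SARB versus Combi (0.10). DESeq2 was run with its own scaling over all endogenous genes and not with the housekeeping genes. Like TMM it therefore changed the scaling, and it changed the test as well. With DESeq2, 1 member was called higher in TQ, 5-FU and SARB versus Combi, and 0 in 5-FU, 2 in SARB and 0 in SARB versus Combi were called lower. Listed genes called higher were 3 in TQ and 4 in SARB, and lower 7 in TQ, 6 in SARB, 1 in Combi and 1 in 5-FU. The same signs turned, for PPP2R1A in SARB (0.31), PPP2R2C in TQ (0.07), 5-FU (0.03) and SARB (0.14), PPP3CC in TQ (0.28), SARB (0.07) and SARB versus Combi (0.21), PPP3R1 in TQ (0.29) and SARB versus Combi (0.14) and PPP3CA in SARB versus Combi (0.18), and so did PPP3CB in SARB versus Combi (0.02).

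With cartridge as a block, which leaves few samples per contrast, members called lower numbered 1 in TQ, 2 in SARB, 0 in 5-FU, 0 in Combi and 0 in SARB versus Combi, and 0 were higher in SARB. Listed genes called lower were 2 in TQ, 1 in 5-FU, 1 in Combi, 2 in SARB and 0 in SARB versus Combi, and 0 were higher in Combi. Signs turned for PPP2CB in TQ (-0.00), PPP2R1A in TQ (-0.22), 5-FU (-0.03) and SARB versus Combi (-0.02), PPP2R2B in SARB versus Combi (0.29), and PPP3CC in TQ (0.02), 5-FU (0.02) and Combi (0.03). In 5-FU, 1 member, PPP3CB, was called lower in place of 2 with a mean raw count of at least 20, with counts under 20 set to 20 and with limma on the authors' normalized values. With counts under 20 set to 20, listed genes called lower were 7 in TQ and 6 in SARB, and 1 was higher in Combi. With limma they were 8 in TQ, 4 in Combi, 2 in 5-FU and 3 in SARB versus Combi for lower and 1 in 5-FU and 1 in SARB for higher, and PPP2R1A in TQ turned to -0.09. Ratios of the authors' normalized values kept the direction of all 15 ratio differences.

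The replicate numbers gave no clear sign of pairing, as 9 of 30 correlations between the deviations of same-numbered samples were over 0.1 (range -0.67 to 0.39). With 3 samples a group, and control and Combi split over cartridges, these correlations cannot decide whether samples were paired. With the replicate block, 1 member was called lower in 5-FU, the call of PPP2R2B being lost at -1.37 (edgeR adjusted p = 0.0634), and no other call of a member changed.

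Leaving out each sample in turn, members called higher ranged from 0 to 1 in 5-FU and 0 to 1 in Combi, and lower from 0 to 2 in 5-FU and 1 to 4 in SARB. Listed genes called higher ranged from 0 to 1 in TQ, 1 to 2 in Combi and 0 to 1 in SARB, and lower from 6 to 21 in TQ, 5 to 17 in SARB, 1 to 4 in Combi, 2 to 7 in 5-FU and 1 to 9 in SARB versus Combi. Values that crossed 0 were those of PPP2CB in SARB versus Combi (-0.04 to 0.25), PPP2R1A in TQ (-0.07 to 0.13) and SARB (-0.12 to 0.09), PPP3CC in Combi (-0.31 to 0.04) and SARB versus Combi (-0.27 to 0.03), and the ratio of PPP3CA over PPP3CB in SARB versus Combi (-0.12 to 0.24). PPP3CA in TQ, PPP3CB in Combi and SARB, PPP2CB in SARB and PPP2R2C in SARB versus Combi stayed called with any 1 sample left out. Counts near the negative probes limit PPP2R2B and PPP3R2, and 3 samples a group limit the rest.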
